A study of Homo sapiens with 4 samples.

Results

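The genes described here encode 37 enzymes that make purine, pyrimidine and deoxynucleotide building blocks and the folate-bound carbon units and serine that feed them. They were taken by gene symbol from a table of 48162 genes, by a rule that uses symbols only. The members were chosen with earlier results of these data known. They fall into a purine branch of 14 genes, a pyrimidine branch of 7, a deoxynucleotide (dNTP) branch of 8 and a one-carbon branch of 8. MDA-MB-231, an established human triple-negative breast cancer cell line, was cultured for 24 h with vehicle (DMSO) or with MGH-CP1, a small molecule that blocks the palmitoylation of TEAD transcription factors, the DNA-binding partners of YAP and TAZ. The labels give the MGH-CP1 concentration as 10 µM, whereas the methods text gives the same figure in millimolar. Poly(A) RNA was sequenced from 2 libraries per group. All 4 libraries came from this single line, the labels name no engineered allele, and the labels do not say whether the libraries of a group came from separate cultures, so p-values measure only the spread between these libraries.

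Purine rings are assembled stepwise on a ribose phosphate to give IMP, from which AMP and GMP are made, whereas the pyrimidine ring is closed as orotate before the sugar is attached to give UMP. Ribonucleotide reductase converts ribonucleotides to deoxynucleotides, and thymidylate synthase adds the methyl group that distinguishes thymidylate. Folate carries the carbon units for the purine ring and for thymidylate, and serine is their main donor. Proliferating tumour cells draw on these routes for RNA and DNA synthesis, and several of the enzymes are targets of chemotherapy.

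Fragments assigned to genes, recovered from the FPKM, numbered 25455533 and 25508824 in the vehicle libraries and 17997221 and 17577930 after MGH-CP1. The number assigned thus differed with treatment, and it does not give the sequenced depth. The part of this difference in the results was not tested. Expression is given as FPKM, fragments scaled for gene length and for the library's total. Differences are in log2(FPKM + 1), MGH-CP1 minus vehicle, from limma fitted to the 12080 genes whose FPKM averaged 1 or more over the libraries, and a gene was called at a Benjamini-Hochberg adjusted p under 0.05. Defining markers of the line were present, with VIM, CD44, AXL, CAV1 and MSN between 149 and 389 FPKM in every library, although AXL and CAV1 were called lower after MGH-CP1. The estrogen receptor gene ESR1 had at most 4 fragments per library, the progesterone receptor gene PGR at most 1, the E-cadherin gene CDH1 at most 0.638 FPKM, and the leukocyte marker PTPRC and the fibroblast marker DCN at most 3 and 2.

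MGH-CP1-treated libraries held less RNA for most of these enzymes. All 37 passed the expression filter, 30 were called lower, 0 were called higher and 7 were not called (32 lower and 0 higher at an unadjusted p under 0.05 by limma, and 31 lower and 0 higher as called by limma-voom on the fragment numbers recovered from the FPKM). Across all genes tested, 23.8% were called lower and 27.1% higher. A decrease of at least 0.5 was called for 16 of the 37, against 6.16% of all genes tested. In 33 of the 37 both MGH-CP1 libraries lay below both vehicle libraries, against 37.4% of all genes tested, and the groups overlapped for APRT, DHODH, CTPS2 and RRM2B. The median difference over the 37 was -0.46, with a range of -0.57 to -0.41 over the 4 pairings of an MGH-CP1 with a vehicle library, beside 0.01 over all genes tested. Summed FPKM of the 37 was 1661 and 1672 with vehicle and 1120 and 1197 with MGH-CP1, so that the mean sum fell by 30.5%, while the sum over all genes tested moved by 5.39%. In bulk RNA, fewer cells in a given state, such as S phase, and less RNA per cell cannot be told apart. The calls rest on a spread shared among genes. With each gene's own variance 0 of the 37 were called, with a lowest adjusted p of 0.0546. Across all genes tested that setting called 4 lower and 9 higher.

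**Figure D1:**
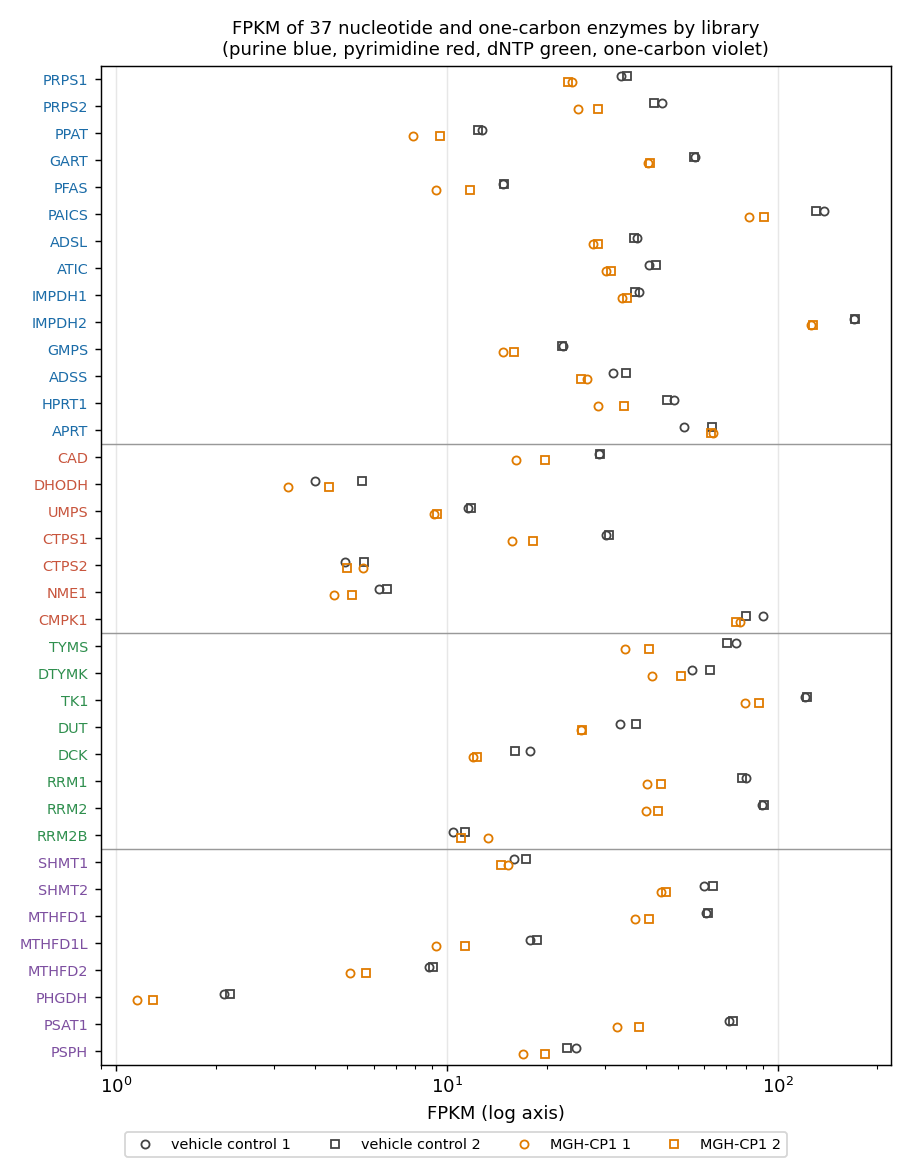
FPKM of each of the 37 enzymes (log axis) in the 4 libraries, with genes grouped by branch, circles for replicate 1, squares for replicate 2, grey for vehicle control and orange for MGH-CP1. For 33 enzymes both orange symbols lie left of both grey ones, and APRT, DHODH, CTPS2 and RRM2B overlap.

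In the purine branch 12 of 14 genes were called lower, with a median of -0.46. PAICS, a bifunctional enzyme of the middle steps of ring assembly, had 138 and 130.4 FPKM with vehicle and 82.1 and 91.1 FPKM with MGH-CP1. Every treated value lay below both controls, and the difference was -0.63 (SE 0.06, limma adjusted p = 1.28e-04). PRPS1 and PRPS2 make phosphoribosyl pyrophosphate, the activated ribose on which the ring is built. PRPS1 had 33.6 and 35.1 FPKM with vehicle and 23.9 and 23.2 FPKM with MGH-CP1, and PRPS2 had 44.6 and 42.4 FPKM against 24.9 and 28.6 FPKM. Neither gene's groups overlapped, with differences of -0.53 (SE 0.05, adjusted p = 1.56e-04) and -0.68 (SE 0.07, adjusted p = 1.75e-04), the latter the most negative in the branch. PPAT, which catalyses the first committed step of purine synthesis, had 12.8 and 12.5 FPKM with vehicle and 7.92 and 9.50 FPKM with MGH-CP1. It was lower in both treated libraries, by a difference of -0.49 (SE 0.09, adjusted p = 0.00208).

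Between PPAT and IMP, the other assembly enzymes moved in the same direction. GART, a trifunctional enzyme, had 56.4 and 55.7 FPKM with vehicle and 40.6 and 41.1 FPKM with MGH-CP1, without overlap (-0.45, SE 0.05, adjusted p = 1.93e-04). PFAS, which adds nitrogen from glutamine, had 14.8 FPKM in each vehicle library and 9.27 and 11.8 FPKM after treatment (-0.47, SE 0.10, adjusted p = 0.00527; -0.31 without MGH-CP1 replicate 1, still called). ADSL acts both before IMP and on the way to AMP. It had 37.5 and 36.8 FPKM with vehicle and 27.6 and 28.6 FPKM with MGH-CP1 (-0.39, SE 0.05, adjusted p = 5.11e-04). ATIC, whose activities complete IMP, had 40.9 and 42.7 FPKM against 30.3 and 31.4 FPKM (-0.43, SE 0.05, adjusted p = 3.86e-04). The groups of these 4 genes did not overlap. The gene models of GART and PFAS each overlap another gene on the opposite strand (SON over 874 bases and CTC1 over 427), and whether strand was used in counting is not given in the sources used here.

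Downstream of IMP the GMP arm contained both a called and an uncalled isozyme of the rate-limiting step. IMPDH2 had 171 FPKM in each vehicle library and 126 and 128 FPKM with MGH-CP1 (-0.42, SE 0.04, adjusted p = 1.77e-04). IMPDH1 had 38.1 and 37.1 FPKM against 33.8 and 34.9 FPKM, which did not overlap, yet its difference of -0.12 was not called (95% interval -0.24 to -0.01, adjusted p = 0.0736). GMPS, which makes GMP from the IMPDH product, had 22.4 and 22.3 FPKM with vehicle and 14.7 and 15.9 FPKM with MGH-CP1, both below the controls (-0.52, SE 0.06, adjusted p = 3.04e-04). ADSS, which opens the AMP arm, had 31.8 and 34.9 FPKM against 26.4 and 25.5 FPKM, again without overlap (-0.35, SE 0.06, adjusted p = 0.00212).

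The salvage enzymes HPRT1 and APRT differed in their values. HPRT1 recovers hypoxanthine and guanine, and had 48.6 and 46.4 FPKM with vehicle and 28.7 and 34.3 FPKM with MGH-CP1 (-0.58, SE 0.08, adjusted p = 6.71e-04). APRT recovers adenine, and had 52.1 and 63.1 FPKM with vehicle against 63.8 and 62.8 FPKM. Its groups overlapped, with a difference of 0.14 that was not called (95% interval -0.05 to 0.33, adjusted p = 0.190). The vehicle libraries differed from each other, and the APRT difference was 0.28 and called without vehicle replicate 2 (adjusted p = 0.00322) but 0.0040 without vehicle replicate 1 (adjusted p = 0.965).

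**Figure D2:**
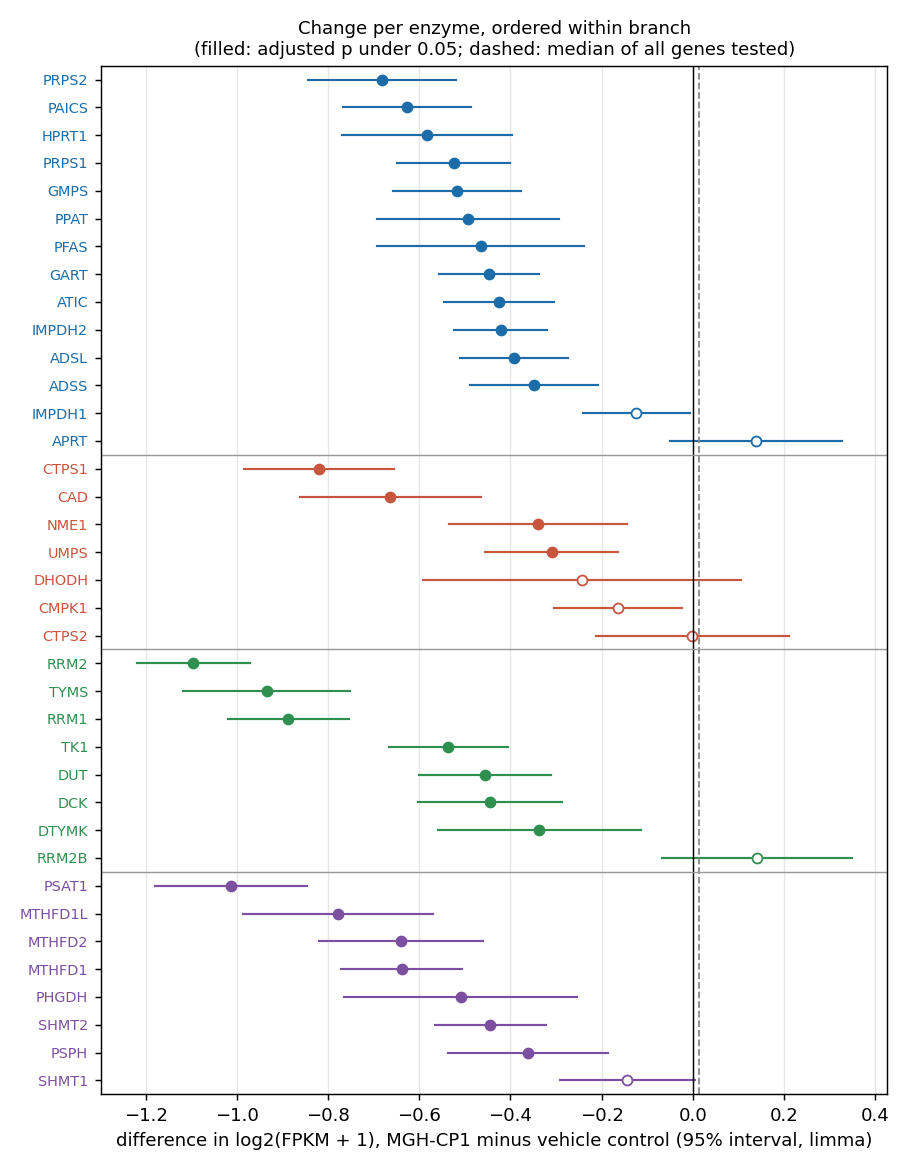
Difference in log2(FPKM + 1), MGH-CP1 minus vehicle control, for each enzyme with its 95% limma interval, ordered within purine, pyrimidine, dNTP and one-carbon branches from top to bottom. Filled points have an adjusted p under 0.05 and the dashed line marks the median of all genes tested, 0.01. The points run from -1.10 for RRM2 to 0.14 for RRM2B.

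PPAT and PAICS lie head to head on chromosome 4. In the table's hg19 coordinates PPAT spans chr4:57259528-57301781 on the minus strand and PAICS spans chr4:57301907-57327534 on the plus strand, so that their starts are 126 bases apart. Promoter windows of 250 bases before to 50 bases after RefSeq starts (GRCh38.p14) were found for 32 of the 37 genes and searched on both strands. ADSL, IMPDH2, RRM2B, SHMT2 and PSPH had no window and were not searched. The E-box CACGTG, the core sequence bound by MYC and related factors, was in a window of 8 of the 32 (25.0%) and of 8.78% of all 27305 genes with windows, a difference in shares that was not tested. These were PPAT, PAICS, ATIC, DHODH, NME1, DCK, MTHFD1 and MTHFD1L. The TEAD core GGAATG was in 5 of the 32 (15.6%), namely PRPS1, GART, APRT, CTPS1 and CMPK1, and in 16.7% of all. A gene with several start sites had several windows, and so more chances of a match, and was counted once. The genes with windows were not limited to those expressed here. A match is a description of letters, not a bound site. The windows of PPAT (chr4:56435566-56435865, minus strand) and ATIC (chr2:215311809-215312108, plus strand) are printed 5′ to 3′ because they show the E-box, in capitals, near the starts of the opening and closing enzymes of the route to IMP. The PPAT window shares 236 bases with one of PAICS, and their E-box matches are the same bases, so that this site counts for both genes. Counted from the start site, with negative positions upstream, the E-box lies at -182 to -177 in PPAT and at -46 to -41 and 30 to 35 in ATIC.
PPAT: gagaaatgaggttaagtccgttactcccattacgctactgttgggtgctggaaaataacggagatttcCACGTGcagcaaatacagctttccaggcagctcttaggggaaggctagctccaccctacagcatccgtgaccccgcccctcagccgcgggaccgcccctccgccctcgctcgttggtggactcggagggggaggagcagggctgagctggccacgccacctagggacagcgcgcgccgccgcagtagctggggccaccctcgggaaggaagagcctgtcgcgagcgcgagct
ATIC: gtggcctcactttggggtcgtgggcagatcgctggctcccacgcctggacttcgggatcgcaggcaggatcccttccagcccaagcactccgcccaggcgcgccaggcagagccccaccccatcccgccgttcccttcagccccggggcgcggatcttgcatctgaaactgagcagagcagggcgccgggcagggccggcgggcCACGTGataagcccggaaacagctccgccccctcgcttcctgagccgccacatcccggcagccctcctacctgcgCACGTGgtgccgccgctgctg

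In the pyrimidine branch 4 of 7 genes were called lower, with a median of -0.31. CTPS1, which aminates UTP to CTP (hg19 chr1:41445007-41478235, plus strand), had 30.3 and 31.0 FPKM with vehicle and 15.8 and 18.1 FPKM with MGH-CP1. Both treated values were far below the controls, and its difference of -0.82 (SE 0.07, limma adjusted p = 8.30e-05) was the most negative of the branch. CAD, the multifunctional enzyme that starts ring synthesis, had 28.9 and 29.0 FPKM with vehicle against 16.2 and 19.8 FPKM (-0.66, SE 0.09, adjusted p = 4.83e-04). UMPS, which turns orotate into UMP, had 11.5 and 11.8 FPKM against 9.16 and 9.31 FPKM (-0.31, SE 0.06, adjusted p = 0.00436). The CAD and UMPS groups did not overlap.

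NME1, a nucleoside diphosphate kinase, had 6.21 and 6.60 FPKM with vehicle and 4.56 and 5.15 FPKM with MGH-CP1. The groups did not overlap (-0.34, SE 0.09, adjusted p = 0.0112), but the call was lost without vehicle replicate 2 (adjusted p = 0.0531) or MGH-CP1 replicate 1 (adjusted p = 0.0686). Its level is uncertain, because it rests on 135 to 277 fragments and its model overlaps that of NME2 over 8839 bases of the same strand, with NME2 listed at 0 in every library. The other 3 genes of the branch were not called. DHODH, the mitochondrial enzyme that makes orotate, had 3.98 and 5.52 FPKM against 3.30 and 4.40 FPKM, from 131 to 311 fragments. Its groups overlapped (-0.24, 95% interval -0.59 to 0.11, adjusted p = 0.213), and its size depended on the library. It was -0.44 and called without vehicle replicate 1 (adjusted p = 0.0349), -0.41 without MGH-CP1 replicate 2 (adjusted p = 0.0847), -0.049 without vehicle replicate 2 and -0.077 without MGH-CP1 replicate 1. CMPK1, the UMP and CMP kinase, had 90.1 and 80.5 FPKM against 76.9 and 74.9 FPKM. Its values did not overlap and its difference of -0.16 missed the threshold (95% interval -0.31 to -0.02, adjusted p = 0.0541), which it passed without vehicle replicate 2 (-0.24, adjusted p = 0.00538), whereas it was -0.083 without vehicle replicate 1 (adjusted p = 0.279). CTPS2, the paralog of CTPS1, had 4.92 and 5.63 FPKM with vehicle and 5.56 and 4.98 FPKM with MGH-CP1. These overlapped fully around a difference of -0.00 (95% interval -0.21 to 0.21, adjusted p = 0.996).

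In the dNTP branch 7 of 8 genes were called lower, with a median of -0.50. RRM2, the small subunit of ribonucleotide reductase used in dividing cells (hg19 chr2:10262455-10271545, plus strand), had 89.4 and 90.9 FPKM with vehicle and 40.0 and 43.3 FPKM with MGH-CP1. Its mean FPKM fell by 53.8%, and its difference of -1.10 (SE 0.05, limma adjusted p = 1.50e-05) was the most negative of the 37, and 0.124% of all genes tested had a more negative one. RRM1, the large subunit, had 80.0 and 78.0 FPKM against 40.3 and 44.2 FPKM, without overlap (-0.89, SE 0.06, adjusted p = 2.79e-05). RRM2B is the alternative small subunit, which supplies deoxynucleotides outside S phase. It had 10.5 and 11.3 FPKM with vehicle and 13.3 and 11.0 FPKM with MGH-CP1, which overlapped (0.14, 95% interval -0.07 to 0.35, adjusted p = 0.227). It was called higher only without MGH-CP1 replicate 2 among the alternatives run (0.26, adjusted p = 0.0475), and the RRM2B difference was 0.018 without MGH-CP1 replicate 1 and 0.087 without vehicle replicate 1.

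The thymidylate genes TYMS, DTYMK, TK1 and DUT were all called lower. TYMS, thymidylate synthase and a target of fluoropyrimidines (hg19 chr18:657604-673578, plus strand), had 75.0 and 70.2 FPKM with vehicle against 34.4 and 40.8 FPKM (-0.94, SE 0.08, adjusted p = 7.48e-05). Its groups did not overlap, and its model shares 1036 bases with ENOSF1 on the opposite strand. TK1, which phosphorylates thymidine in S phase, had 121 and 122 FPKM against 79.4 and 87.6 FPKM (-0.54, SE 0.06, adjusted p = 1.89e-04). DUT, which removes dUTP and supplies dUMP for TYMS, had 33.4 and 37.2 FPKM against 25.4 and 25.5 FPKM. Both treated values lay below both controls, with a difference of -0.46 (SE 0.06, adjusted p = 6.55e-04). DTYMK, which phosphorylates dTMP, had 55.0 and 62.3 FPKM against 41.7 and 51.1 FPKM, close but without overlap (-0.34, SE 0.10, adjusted p = 0.0201). Its call was lost without vehicle replicate 2 (adjusted p = 0.0576) or MGH-CP1 replicate 1 (-0.19, adjusted p = 0.117). DCK, which salvages deoxycytidine, had 17.8 and 16.0 FPKM against 11.9 and 12.3 FPKM, without overlap (-0.45, SE 0.07, adjusted p = 0.00110), and its model overlaps MOB1B over 29912 bases of the same strand.

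The E2F sequences TTTCGCGC and TTTGGCGC, variants of the element through which E2F factors act on S phase genes, were in a window of 3 of the 32 genes (9.38%), GART, DUT and DCK, and of 1.40% of all genes with windows. This difference in shares was not tested, and the genes with windows were not limited to those expressed here. In the dNTP branch, TYMS, DTYMK, TK1, RRM1 and RRM2 had windows without a match, and RRM2B had no window. The DUT window (RefSeq, GRCh38.p14, chr15:48331947-48332246, plus strand) is printed because its match, in capitals, lies at -27 to -20 from that window's start site. DUT, lower in both treated libraries, has 4 windows, of which only this 1 held a match.
DUT: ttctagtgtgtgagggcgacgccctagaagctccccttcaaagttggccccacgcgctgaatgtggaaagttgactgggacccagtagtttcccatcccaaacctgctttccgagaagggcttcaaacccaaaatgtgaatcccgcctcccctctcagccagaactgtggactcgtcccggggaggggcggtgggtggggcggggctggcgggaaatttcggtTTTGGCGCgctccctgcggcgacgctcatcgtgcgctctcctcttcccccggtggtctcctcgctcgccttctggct

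In the one-carbon branch 7 of 8 genes were called lower, with a median of -0.57. Over the 4 library pairings this median ranged from -0.65 to -0.50, which overlapped the range of the dNTP median (-0.59 to -0.48). PSAT1, the aminotransferase of serine synthesis (hg19 chr9:80912059-80945009, plus strand), had 71.5 and 73.1 FPKM with vehicle and 32.7 and 38.1 FPKM with MGH-CP1. Its mean FPKM fell by 51.0% (-1.01, SE 0.07, limma adjusted p = 3.83e-05), without overlap. PHGDH, which opens serine synthesis from a glycolytic intermediate, was the lowest expressed of the 37, with 2.11 and 2.21 FPKM against 1.15 and 1.29 FPKM from 66 to 179 fragments. The ratio of its means was 0.565, and the logarithm with 1 added understates this change (-0.51, SE 0.11, adjusted p = 0.00601). The PHGDH difference was -0.78 with a pseudocount of 0.1 and -0.82 with limma-voom. PSPH, the phosphatase that releases serine, had 24.5 and 23.1 FPKM against 17.0 and 19.7 FPKM (-0.36, SE 0.08, adjusted p = 0.00519). The groups of PHGDH and PSPH did not overlap, and the copy PSPHP1 held up to 179 fragments in a library, so some PSPH fragments may be split between them. Summed FPKM of the 3 serine genes changed by -44.1%.

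Folate enzymes of the cytosol and of mitochondria were among the genes called lower. MTHFD1, the trifunctional cytosolic enzyme, had 60.7 and 61.7 FPKM with vehicle and 37.1 and 40.8 FPKM with MGH-CP1 (-0.64, SE 0.06, adjusted p = 9.71e-05). MTHFD1L, which releases formate from mitochondria, had 17.8 and 18.7 FPKM against 9.24 and 11.3 FPKM (-0.78, SE 0.09, adjusted p = 2.91e-04). MTHFD2, the mitochondrial dehydrogenase and cyclohydrolase high in many tumours, had 8.84 and 9.07 FPKM against 5.09 and 5.69 FPKM (-0.64, SE 0.08, adjusted p = 3.62e-04). In none of these 3 genes did the groups overlap, and MTHFD1 shares 10902 bases with ZBTB25. SHMT1 and SHMT2 split serine into glycine and a folate-bound carbon, in the cytosol and in mitochondria. SHMT2 had 59.9 and 63.6 FPKM against 44.2 and 45.9 FPKM (-0.44, SE 0.05, adjusted p = 3.26e-04), and SHMT1 had 16.0 and 17.3 FPKM against 15.3 and 14.6 FPKM. Neither overlapped, but the SHMT1 difference of -0.14 was not called (95% interval -0.29 to 0.01, adjusted p = 0.0973), and it was -0.090 without vehicle replicate 2. The SHMT1 model, with 708 to 1215 fragments, shares 183 bases with RP1-178F10.3 on the opposite strand, which held 717 to 1093.

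The ATF4 sequences TGATGCAA and TGATGAAA, forms of the element through which ATF4 acts on amino acid genes, were in a window of 1 of the 32 genes (3.13%), MTHFD1L, and of 2.44% of all genes with windows. Its window (RefSeq, GRCh38.p14, chr6:150866236-150866535, plus strand) is printed because it holds both this match, at -129 to -122 from that window's start site, and an E-box at -154 to -149, each in capitals. Of the 4 windows of MTHFD1L, 3 held both, but these windows overlap and their matches are the same bases. The one-carbon genes SHMT2 and PSPH had no window and were not searched.
MTHFD1L: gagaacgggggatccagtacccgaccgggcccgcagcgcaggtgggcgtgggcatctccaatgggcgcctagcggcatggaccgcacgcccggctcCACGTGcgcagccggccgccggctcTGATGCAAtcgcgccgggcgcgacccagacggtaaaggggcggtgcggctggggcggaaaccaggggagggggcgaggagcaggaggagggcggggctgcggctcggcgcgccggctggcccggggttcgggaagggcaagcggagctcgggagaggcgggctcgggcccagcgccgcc

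Ratios of FPKM within a library were compared for 8 pairs of isozymes or partner enzymes. With 2 libraries against 2, the two-sided exact permutation test cannot go below p = 0.33, so none of the pairs could pass 0.05. RRM2 made up 89.5% and 88.9% of the summed RRM2 and RRM2B FPKM with vehicle and 75.1% and 79.7% with MGH-CP1, without overlap (log2 ratio difference -1.27, exact permutation p = 0.33, adjusted over the 8 pairs 0.444). CTPS2 made up 13.98% and 15.4% of the CTPS1 and CTPS2 sum with vehicle and 26.1% and 21.5% with MGH-CP1, a log2 ratio difference of 0.86 with the same exact p. For SHMT2 over SHMT1 and for IMPDH2 over IMPDH1 the log2 ratio differed by -0.30 each, and the share of the more abundant isozyme was lower in both treated libraries. MTHFD1L over MTHFD1 differed by -0.19 and MTHFD2 over MTHFD1 by -0.08, also without overlap and with exact permutation p = 0.33. With 1 added to each FPKM, the MTHFD2 over MTHFD1 groups overlapped (exact permutation p = 1). The ratios of PRPS2 over PRPS1 (-0.16) and TK1 over DCK (-0.07) overlapped between the groups (exact permutation p = 0.667, adjusted 0.667).

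**Figure D3:**
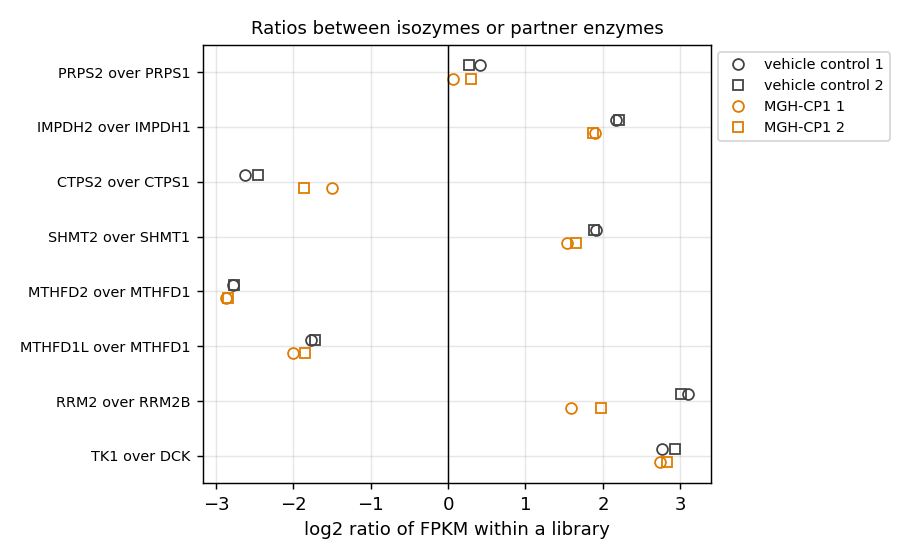
Log2 ratio of FPKM within each library for 8 pairs of isozymes or partner enzymes, with grey symbols for vehicle control, orange for MGH-CP1, circles for replicate 1 and squares for replicate 2. The treated libraries lie to the right for CTPS2 over CTPS1 and farthest to the left for RRM2 over RRM2B, and they overlap the controls for PRPS2 over PRPS1 and TK1 over DCK.

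A list of 59 other genes of these routes, for salvage, breakdown, transport and further folate steps, held genes called in each direction. Of 47 that passed the filter, 16 were called lower, 14 higher and 17 were not called, beside 23.8% lower and 27.1% higher among all genes tested, with a median of -0.00 beside -0.46 for the 37 enzymes. By branch, 3 lower and 4 higher of 14 were purine genes, 3 and 4 of 11 pyrimidine genes, 2 and 3 of 8 dNTP genes, and 8 and 3 of 14 one-carbon genes. Among genes lower by at least 0.5, DCTPP1, which hydrolyses dCTP, had 14.05 and 15.6 FPKM with vehicle and 8.41 and 9.08 FPKM with MGH-CP1 (-0.70, limma adjusted p = 1.99e-04). SLC25A32, the mitochondrial folate carrier, had 24.7 and 24.4 FPKM against 15.1 and 18.4 FPKM (-0.53, adjusted p = 0.00140). Neither gene's groups overlapped.

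Of the related genes, 5 were called higher by at least 0.5. TYMP, which cleaves thymidine, had 2.28 and 2.76 FPKM with vehicle and 8.0 and 6.69 FPKM with MGH-CP1 (1.25, adjusted p = 8.67e-05). AMT, of the glycine cleavage system, had 0.973 and 0.935 FPKM against 3.29 and 2.99 FPKM (1.08, adjusted p = 1.45e-04; 1.71 with limma-voom). Its partners in that system, GCSH and DLD, were called lower (-0.37 and -0.25, limma adjusted p = 0.0392 and 0.0163), and GLDC had at most 2 fragments in a library. Fragments were few for GCSH (49 to 118) and for AMT (78 to 194). AMPD3, which deaminates AMP to IMP, had 3.94 and 3.64 FPKM against 7.12 and 7.19 FPKM (0.77, adjusted p = 1.69e-04). Treated values of TYMP, AMT and AMPD3 lay above both controls. Other breakdown enzymes were called in both directions. PNP (-0.28), which cleaves purine nucleosides, DPYD (-0.26), which reduces uracil and thymine, and NT5C3A (-0.34) were called lower. AMPD2 (0.44), UPP1 (0.28) and NT5C (0.35) were called higher, and ADA (0.27) was not called. NME3, a nucleoside diphosphate kinase paralog, had 9.81 and 11.0 FPKM against 17.9 and 19.9 FPKM (0.80, adjusted p = 1.35e-04). SLC19A1, the reduced folate carrier of the plasma membrane, had 0.783 and 0.607 FPKM against 1.47 and 1.36 FPKM from 59 to 101 fragments (0.51, adjusted p = 0.0117). The SLC19A1 call was lost without vehicle replicate 2 (0.44, adjusted p = 0.0732), with quantile normalization (0.34, adjusted p = 0.0633) and without the filter (adjusted p = 0.0522). Its difference was 0.94 with a pseudocount of 0.1 and 1.03 with limma-voom, both called.

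**Figure D4:**
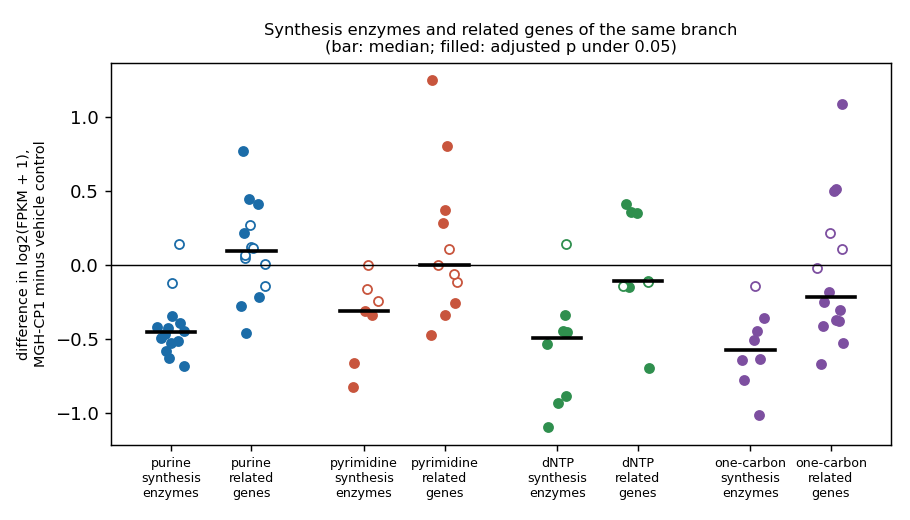
Difference in log2(FPKM + 1), MGH-CP1 minus vehicle control, for the synthesis enzymes and the related genes of each branch, with 1 point per gene, filled at an adjusted p under 0.05, and a bar at the median. The synthesis enzymes center on -0.46, -0.31, -0.50 and -0.57 from left to right, and the related genes spread to both sides of 0.

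Replication genes and known regulators were read beside the enzymes. The replication genes MCM2 to MCM7 and PCNA were called lower in 7 of 7, between -0.79 and -0.52 with a median of -0.69, and E2F1, a driver of S phase genes, had 64.3 and 66.3 FPKM with vehicle and 45.02 and 50.8 FPKM with MGH-CP1 (-0.44, limma adjusted p = 8.20e-04). MYC, an activator of many nucleotide synthesis genes, had 63.3 and 67.3 FPKM against 55.4 and 56.9 FPKM (-0.21, adjusted p = 0.00966), and its call was lost without MGH-CP1 replicate 1 (adjusted p = 0.0636). ATF4, an activator of serine and mitochondrial folate genes, had 87.7 and 96.3 FPKM against 89.9 and 96.1 FPKM, with full overlap (0.02, adjusted p = 0.841), a difference whose sign changed without vehicle replicate 1 or MGH-CP1 replicate 2. The TEAD and YAP target genes CYR61, CTGF and ANKRD1 were called lower in 3 of 3 (-0.75, -0.66 and -0.66). All of these are RNA levels, which do not show protein or activity. The part of these genes in the enzyme values was not tested.

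Across the 37 enzymes, those at higher vehicle levels tended to have the more negative difference, with a Spearman correlation of -0.33 and a Pearson correlation of -0.34. These are given as a description, since the genes share libraries and the vehicle values enter both measures. The 1 added before the logarithm also shrinks the differences of genes at low levels, and its part in these correlations was not tested. Of the 37, 30 were lower in MGH-CP1 replicate 1 than in replicate 2, while 24 were lower in vehicle replicate 1 than in vehicle replicate 2. The same counts were not made over all genes tested, so these orders are not read as a trait of the enzymes. The size of the decrease depended on the library, with a median over the 37 of -0.57 to -0.41 over the 4 pairings.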

How the data were processed

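MDA-MB-231 RNA was sequenced in 4 libraries (150 bp paired-end). The authors deposited FPKM values per gene. The submitters' processing notes name CASAVA 1.8, STAR and hg19, and the counting tool is not given in the sources used here. FPKM multiplied by gene length fell on whole multiples of 1 fragment for 100% of values (tolerance 0.01). From these, fragment numbers per gene and their library totals (25455533 and 25508824 for vehicle, 17997221 and 17577930 for MGH-CP1) were recovered.

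Genes averaging 1 FPKM or more were tested as log2(FPKM + 1) with limma 3.58.1 (R 4.3.3; trended empirical Bayes, no covariates, Benjamini-Hochberg adjustment over all 12080 genes), after the script had been tested on simulated data. Isozyme ratios were tested by exact permutation (scipy 1.17.1). Alternatives were the pseudocount, the filter, median-ratio and quantile scaling, a replicate block, limma without the trend or with per-gene variance, limma-voom on recovered fragments, and leaving out each library. Deviations of same-numbered libraries correlated at 0.0777 over only 2 pairs, so the numbers were not taken to pair the libraries.

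The members and lists were chosen with earlier results of these data known. Named were all 37 enzymes, related genes called with a difference of at least 0.5, and fixed lists of replication genes, regulators, TEAD targets and line markers. NT5C3 and PECAM1 were not analysed here, and a few genes of these lists are not reported here. The promoters printed were chosen after the motif matches were seen. GCSH, DLD, GLDC, PNP, DPYD, NT5C3A, AMPD2, UPP1, NT5C and ADA were named after their values were seen.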

Additional observations from a re-analysis of the deposited data

How the results depend on the processing

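Of the 37 enzymes, 30 were called lower, and 26 to 32 in every alternative except per-gene variance, which called 0. Without the expression filter PFAS, NME1, DTYMK and PSPH were lost, and without the limma trend DTYMK was lost. The replicate block called 32, adding DHODH and CMPK1, and CMPK1 was also called with a minimum mean FPKM of 5, median-ratio scaling and limma-voom. Enzymes called higher numbered 0 to 1 when a library was left out. Across all genes, 1844 were called lower without the filter and 4 with per-gene variance, which called 9 higher. Of the related genes, 10 were called lower and 9 higher without the filter, and 0 and 0 with per-gene variance. The one-carbon median was -0.69 with a pseudocount of 0.1 and -0.69 with limma-voom. Leaving out a library moved the purine median between -0.48 and -0.41 and the pyrimidine median between -0.41 and -0.27. CTPS2 differences turned sign with limma-voom (0.0007), without vehicle replicate 2 (0.081) and without MGH-CP1 replicate 2 (0.066), over a leave-one-out range of -0.082 to 0.081. ATF4 turned to -0.051 without vehicle replicate 1 and -0.031 without MGH-CP1 replicate 2, over a range of -0.051 to 0.083, and TK1 over DCK to 0.019 without vehicle replicate 2, over a range of -0.15 to 0.019. No scaling moved the median of all genes by over 0.1. With 17577930 to 25508824 fragments and 2 libraries per group, the largest standard errors among the 37 were those of DHODH and PHGDH, both with few fragments.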
